A study of Homo sapiens with 2 samples.

Results

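HepG2 is a human liver carcinoma line that keeps much of the secretory programme of hepatocytes, the cells that make the acute phase proteins of blood plasma. The mRNA levels of 9 acute phase or related secreted proteins (CRP, SAA1, SAA2, SAA4, HP, ORM1, ORM2, LBP and FGL1) and of SOCS3, the feedback inhibitor of the pathway that induces them, were followed in HepG2 cells treated with hawk tea extract (HTE), an ethanol extract of the leaves of a Litsea plant. These 10 genes, of 41127 genes and unnamed transcripts on the array, were found by name through the RefSeq transcript of each probe. The match used no measured value, and 12 probes matched them. The genes themselves were chosen with earlier results of these data known. The study hybridised 1 one-colour (Cy3) Agilent human expression array with RNA of cells given dimethyl sulfoxide (DMSO, the solvent) for 24 h and 1 array with RNA of cells given HTE for 24 h. The sample labels give an HTE dose of 200 μg per mL, whereas the HTE array as deposited is named for 300 μg per mL, which is also the dose in the description of the array experiment. Both cultures were HepG2 in high-glucose medium with fetal bovine serum and antibiotics, and no cytokine is named for either. With 1 array per group there is no replicate, so no test, p value or standard error between the treatments is given, and array, culture and treatment cannot be told apart. In RNA from whole cultures, fewer cells of a kind and less RNA per cell cannot be told apart.

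The non-control spots of the 2 arrays were similar in brightness. The control spots for spike-in RNA were brighter on the HTE array. Without scaling, the median log2 ratio of HTE over DMSO over all genes was -0.18, and with scaling to the spike-in spots it was -1.21. The share of spots well above background was 60.6% on the DMSO array and 56.6% on the HTE array, and no spot was saturated. The 75th percentile of the processed signal was 4020 and 3570 intensity units. Log2 levels and, unless another scaling is named, log2 ratios below are set to it. Processed signals are given before scaling. All 9 hepatocyte markers listed, among them ALB, APOA1, TTR and HNF4A, were well above background on both arrays, with log2 ratios of HTE over DMSO from -0.19 to 0.32. Of 17 markers of other liver or blood cells, 8 were well above background, including the biliary and progenitor genes KRT19, KRT7 and SOX9, the macrophage marker CD68 (4138 on the DMSO array and 5070 on the HTE array, log2 ratio of 0.46) and the leukocyte marker PTPRC (2351 and 2297, 0.14). The macrophage, T cell and B cell markers CD163, CD3E and MS4A1 were not. Of those 8, PECAM1, an endothelial gene, was the only one past 2-fold (804 on the DMSO array and 203 on the HTE array, log2 ratio of -1.82). The others ran from -0.63 to 0.46 at their brightest probes. PTPRC had -0.88 at a dimmer probe, also well above background on both arrays. Before scaling, the summed signal of the 8 markers was 126735 on the DMSO array and 137282 on the HTE array. Without KRT19, which gave most of it, the sum was 28732 and 25742. Levels of different probes are not comparable, so the sum measures no cell content. Both samples were cultures of 1 cell line, HepG2, not of a mixed tissue, and the source of these marker signals was not tested.

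The acute phase response is the change in plasma proteins that the liver makes during infection or injury. Interleukin 6 binds its receptor and the shared subunit gp130 on hepatocytes, Janus kinases phosphorylate STAT3, and STAT3 acts together with C/EBP and NF-κB factors on the promoters of the acute phase genes. CRP, SAA1 and SAA2 are nearly silent without cytokine and are induced very strongly, HP, ORM1 and ORM2 are expressed at rest and induced moderately, and SAA4 is the constitutive serum amyloid A. SOCS3, itself a STAT3 target, binds gp130 and the kinases and shuts the signal off.

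To show the regulatory sequence beside the signals, the 250 bases before the RefSeq start site (GRCh38.p14) are given for a gene at background (CRP), for a pair of bright genes (ORM1 and SAA4) and for the feedback inhibitor (SOCS3). A promoter entry was matched for 4 of the 10 genes. SOCS3 has more than 1 start in the table and the upstream one is printed. Sequences run 5′ to 3′ on the gene's strand, and capitals mark letters that match, on either strand, the TATA box letters TATAAA, the C/EBP letters TTGCNNAA, the STAT letters TTCNNNGAA or the NF-κB letters GGGNNTTTCC.
CRP, chr1:159714590-159714839, minus strand: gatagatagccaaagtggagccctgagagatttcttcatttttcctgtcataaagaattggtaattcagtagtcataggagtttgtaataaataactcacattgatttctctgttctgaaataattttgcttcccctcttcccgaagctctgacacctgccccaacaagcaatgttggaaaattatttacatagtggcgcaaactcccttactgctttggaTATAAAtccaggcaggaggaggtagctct
ORM1, chr9:114322848-114323097, plus strand: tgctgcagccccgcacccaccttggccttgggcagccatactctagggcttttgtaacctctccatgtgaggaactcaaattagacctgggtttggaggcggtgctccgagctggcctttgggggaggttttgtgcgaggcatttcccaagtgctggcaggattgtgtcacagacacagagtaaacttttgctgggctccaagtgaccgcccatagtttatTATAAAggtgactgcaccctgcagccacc
SAA4, chr11:18236803-18237052, minus strand: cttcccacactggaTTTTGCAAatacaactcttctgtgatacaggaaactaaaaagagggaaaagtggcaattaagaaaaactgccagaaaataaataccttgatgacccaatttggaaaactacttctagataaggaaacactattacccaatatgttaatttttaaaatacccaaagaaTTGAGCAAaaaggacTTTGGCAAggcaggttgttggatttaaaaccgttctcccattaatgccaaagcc
SOCS3, chr17:78360926-78361175, minus strand: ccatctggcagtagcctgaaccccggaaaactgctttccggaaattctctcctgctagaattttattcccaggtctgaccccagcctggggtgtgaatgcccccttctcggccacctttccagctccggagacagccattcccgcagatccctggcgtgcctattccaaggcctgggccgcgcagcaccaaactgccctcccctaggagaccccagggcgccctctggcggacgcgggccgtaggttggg

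CRP and ORM1 each held a TATAAA, which began 29 bases before the start. SAA4 held 3 matches to the C/EBP letters, which began 236, 69 and 54 bases before the start. SOCS3 held no match in the 250 bases of either of its entries, and none of the printed windows held the STAT or the NF-κB letters. Bases outside these windows, among them those between the SOCS3 entries, were not searched, so matches elsewhere remain possible. Over the 35116 promoters of the table, windows of the same length held TATAAA in 10.7%, the C/EBP letters in 9.05%, the STAT letters in 6.57% and the NF-κB letters in 1.73%. These are matches of letters, not measured binding. No letters overlapped between motifs in the printed windows.

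On these arrays, 6 of the 10 genes (SAA4, HP, ORM1, ORM2, FGL1 and SOCS3) were well above background on both arrays, SAA2 was so on the DMSO array alone, and CRP, SAA1 and LBP were so on neither. None of the 7 genes measured on at least 1 array was past 2-fold, the study's cutoff, in either direction, except that HP, SOCS3, ORM1 and ORM2 (4 genes) were lower by that much with spike-in scaling, and SAA2 with its dim signal taken as it stands. Of all 23752 genes and transcripts so measured, 5.25% (1248) rose on the HTE array by 2-fold or more and 3.03% (720) fell by as much. Scaling to spike-in RNA lowered all ratios together, to a median of -1.21 over all genes, so that most log2 ratios given below as above 0 turn below 0 with it. The split of all genes depended on scaling, with 883 higher and 1209 lower without scaling, and 144 higher and 15957 lower with spike-in scaling. At 1.5-fold, HP was the only one of the 7 past the cutoff, in the lower direction, where 10.5% of all genes lay, and 12.4% of all genes were at least 1.5-fold higher.

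**Figure D1:**
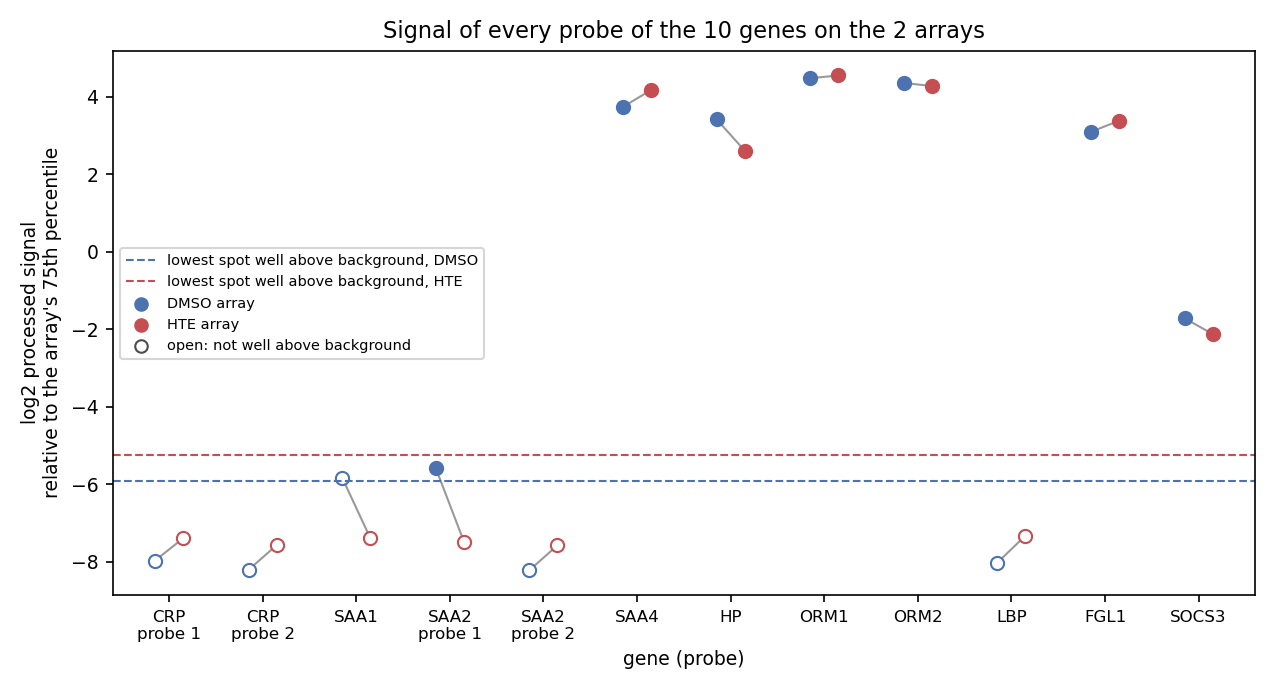
Log2 processed signal relative to the 75th percentile of each array (y axis) for all 12 probes of the 10 genes (x axis), DMSO in blue and HTE in red, joined per probe, with open circles for probes not well above background and dashed lines at the dimmest spot well above background on each array. SAA4, HP, ORM1, ORM2, FGL1 and SOCS3 lie well clear of the dashed lines, and CRP, SAA1, LBP and both SAA2 probes lie at or near them or below. Levels of different probes are not comparable with each other.

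The 4 strongly inducible or cytokine-dependent genes gave little or no signal. CRP, the pentraxin that binds phosphocholine on bacteria and dying cells, had 2 probes to 1 transcript (NM_000567), with processed signals of 16.1 and 13.7 on the DMSO array and 21.3 and 18.9 on the HTE array. LBP, which carries lipopolysaccharide to CD14, had a signal of 15.5 on the DMSO array and 22.3 on the HTE array. The 308 spots of the negative control had a median signal of 14.1 (95th percentile 21.1) on the DMSO array and of 19.9 (25.1) on the HTE array, so on each array both probes of CRP and the probe of LBP lay below the 95th percentile of the negative controls, and no ratio is given for them.

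SAA1 and SAA2 are near-identical genes for the acute serum amyloid A that rides on high-density lipoprotein, and their probes may share transcripts. SAA1 had a signal of 70.6 on the DMSO array and 21.4 on the HTE array, flagged as well above background on neither. The SAA2 probe to NM_030754 had 83.9 on the DMSO array, well above background there, and 20.1 on the HTE array, where it was not. The second SAA2 probe, to the transcript NM_001127380, was dim on both arrays (13.6 and 18.8). Both SAA1 and the first SAA2 probe were thus above the 95th percentile of the negative controls on the DMSO array and below it on the HTE array. The dimmest spot well above background on the HTE array was at 94.6, higher than the SAA2 signal on the DMSO array, so the data set no lower bound on a fold and SAA2 entered the counts as no change. Its own signals, taken at face value, would give a log2 ratio of -1.89, past 2-fold, and those of SAA1 would give -1.55, but each rests on 1 spot near background.

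SAA4, the constitutive member of the family, was bright and had 10 replicate spots on each array. Its processed signal ran from 49325 to 56442 on the DMSO array (median 53639) and from 62628 to 67860 on the HTE array (median 63519), with means of 53563 ± 2146 and 64298 ± 1780 (SD over 10 spots, which is spot error and not culture error). All 10 HTE spots were brighter than all 10 DMSO spots. After scaling, SAA4 was 1.35-fold higher on the HTE array, a log2 ratio of 0.44, with the 10 spots between 0.36 and 0.53 (SD 0.05). Among the 21000 genes well above background on both arrays, 82.7% had a lower ratio than SAA4. The spots without scaling give 0.26, and scaling to spike-in RNA turns the sign (-0.77).

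**Figure D2:**
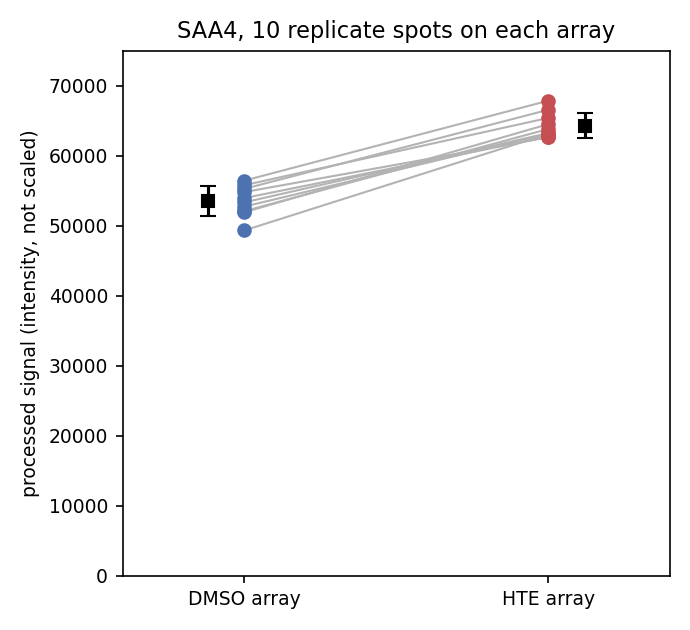
Processed signal of SAA4 before scaling (y axis, intensity) in the 10 replicate spots of the DMSO array (blue) and the HTE array (red), with grey lines joining spots at the same position and black squares and bars for the mean ± SD. The HTE spots lie between 62628 and 67860, all above the highest DMSO spot of 56442.

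HP, haptoglobin, binds free haemoglobin in plasma and is induced through STAT3 and C/EBP. Its single spot had a processed signal of 42905 on the DMSO array and 21753 on the HTE array. After scaling it was 1.75-fold lower on the HTE array, a log2 ratio of -0.81, the largest difference among the 6 genes measured on both arrays. A lower ratio was found for 5.38% of the 21000 genes. HPR, the haptoglobin-related gene beside HP, is near-identical in sequence, and its probe was also lower, from 30022 to 13594, a log2 ratio of -0.97. Cross-hybridisation between the probes of HP and HPR was not tested. HP was lower under every way of scaling tried, from -0.74 with normexp background correction to -0.98 without scaling and -2.02 with spike-in scaling.

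ORM1 and ORM2 encode orosomucoid, a heavily glycosylated lipocalin that binds drugs in plasma, and their transcripts are also near-identical. ORM1 had a signal of 89355 on the DMSO array and 83326 on the HTE array, and ORM2 had 82133 and 68997. The scaled log2 ratios were 0.07 for ORM1 and -0.08 for ORM2, in opposite directions. Both were within the error of 0.20 that the scanner software states for a spot. The ratio of ORM1 was below 0 with quantile normalization, with scaling to the median, without scaling and with spike-in scaling, so its direction is not settled. The ratios of ORM1 and ORM2 lay above those of 57.4% and 42.5% of the 21000 genes.

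FGL1, a hepatocyte protein with a fibrinogen-like domain that is released in the acute phase and during regeneration, had a signal of 34281 on the DMSO array and 37094 on the HTE array. The scaled log2 ratio was 0.28 (1.22-fold higher), above that of 74.5% of genes. It was 0.11 without scaling and -0.92 with spike-in scaling.

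SOCS3 had a signal of 1224 on the DMSO array and 820 on the HTE array. It was 1.33-fold lower after scaling, a log2 ratio of -0.41, and 17.8% of the 21000 genes had a lower ratio. It was lower under every way of scaling tried, from -0.34 with normexp background correction to -0.58 without scaling and -1.62 with spike-in scaling. The other 7 genes of the SOCS family did not share 1 direction, except that all were below 0 with spike-in scaling. SOCS1, which inhibits the kinases directly, had a log2 ratio of -0.81 (6546 to 3323), SOCS7 -0.41, SOCS5 -0.21 and SOCS6 -0.16. SOCS2, a feedback inhibitor of growth hormone signalling, had 0.60 (1422 to 1920), SOCS4 0.21 and CISH 0.17 (-0.0033 without scaling).

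The error of a spot sets how these values can be read. The median SD of the log2 ratio over replicate spots of a probe was 0.05 (688 probes with at least 5 spots), and it was 0.06 for the 101 such probes within 1 log2 unit of the level of SOCS3, the noisiest of which had 0.20. Different probes of the same gene differed by a median SD of 0.16 over 3759 genes. The error that the scanner software states for 1 spot, carried to the ratio, was 0.20 for ORM1, ORM2, HP, FGL1 and SAA4 and 0.21 for SOCS3. The ratios of HP, SOCS3, SAA4 and FGL1 exceeded it, and those of ORM1 and ORM2 did not. This stated error was nearly the same for all 6 genes, whereas the measured SD over the spots of SAA4 was 0.05. Exceeding it is therefore no test. None of these values includes the spread between cultures. The median ratio of the spots around each of the 6 probes lay between -0.03 and 0.04.

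**Figure D3:**
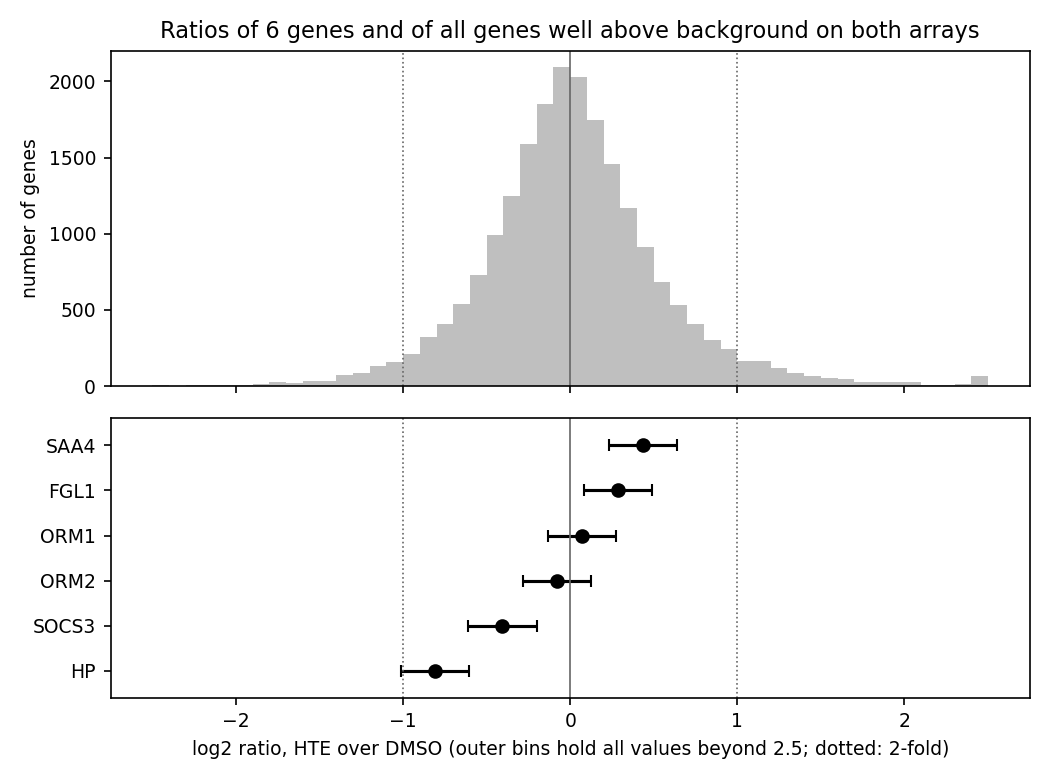
Upper panel, number of genes (y axis) by log2 ratio of HTE over DMSO (x axis) for the 21000 genes well above background on both arrays. Lower panel, the ratios of SAA4, FGL1, ORM1, ORM2, SOCS3 and HP on the same axis, with bars for the software's spot error of 0.20 or 0.21. HP (-0.81) and SAA4 (0.44) are the outermost of the 6, and all 6 points lie inside the dotted lines at 2-fold, with the bar of HP reaching the lower one.

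Other positive acute phase genes were read from a list of 26, of which 24 were measured, all on both arrays. Of these, 5 were at least 2-fold lower and 1 at least 2-fold higher, beside 3.03% lower and 5.25% higher over all genes. This list, like the lists below, was chosen with earlier results of these data known, so its counts are no test against all genes. The median log2 ratio was -0.19, beside -0.0049 over all 21000 genes measured on both arrays. HAMP, the iron hormone hepcidin, was lowest, at 29472 on the DMSO array and 5491 on the HTE array (log2 ratio of -2.25). CD14, the receptor that takes lipopolysaccharide from LBP, was next (2647 and 688, -1.77), followed by MBL2, mannose-binding lectin of the lectin complement pathway (3310 and 1274, -1.21). HPX, hemopexin, which binds free haem as HP binds haemoglobin, had -1.16, and FGA, the fibrinogen alpha chain, had -1.11, with -1.25 and -1.38 at its other probes. The gene past 2-fold in the other direction was VNN1, the pantetheinase vanin 1 (435 and 1473, 1.93). The complement gene C3 had 0.26 at its brightest probe, near the value of FGL1, and 0.54 at its dimmer probe. The protease inhibitor gene SERPINA1 had 0.21. A2M, whose induction in these cells was not tested, had 0.22. Without scaling the median of the list was -0.36.

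In a list of 14 negative acute phase genes, which the liver lowers during inflammation, 12 were measured and none was past 2-fold in either direction. The median was 0.15, and it was -1.02 with spike-in scaling. ALB (0.18), APOA1 (0.21), TTR (0.09) and TF (0.12) were all near the median, and APOA4 was highest (0.89). FETUB was lowest (-0.43).

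The cytokine pathway upstream of the acute phase genes was read from 38 genes, of which 36 were measured. At least 2-fold higher were 5 genes, and 1 was at least 2-fold lower, beside 5.25% and 3.03% of all genes. The median log2 ratio was 0.11, and it was below 0 without scaling (-0.060) and with spike-in scaling (-1.10). Among the ligands, CTF1 (cardiotrophin 1) had 1.60, IL11 1.07 and LIF 1.01, all of them cytokines that signal through gp130. IL6 itself passed the background flag with DMSO only, at a signal of 99.6, with 67.3 on the HTE array, and no fold was set. The receptor gene IL6R had 1.00 (766 and 1362), with 1.61 at its dimmer probe, and the gp130 gene IL6ST had -0.14, with its 6 other probes between -0.13 and 0.29. STAT3 had 0.06 (7141 and 6598) at its brightest probe and 0.02 at the other. Among the transcription factors, CEBPA, the C/EBP form of resting liver, was 2.24-fold lower (27382 and 10849, -1.16), CEBPB, the form that acute phase signals induce, had 0.65 (38289 and 53488), and CEBPD had -0.26. The immediate early gene FOS had 1.41 at a low level (87.0 and 206). IL6R, LIF and IL11 were at the cutoff, and after scaling to the median they were under it (0.92, 0.93 and 0.99), and with spike-in scaling their ratios were below 0.

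The interleukin 1 and NF-κB genes formed the fourth list, of 34 genes with 30 measured, of which 3 were at least 2-fold higher and 1 at least 2-fold lower, beside 5.25% and 3.03% of all genes. The median log2 ratio was 0.17, and it was below 0 without scaling (-0.0014) and with spike-in scaling (-1.04). IL1A was well above background on the HTE array alone (16.1 and 347) and was at least 5.87-fold higher. CXCL8, the neutrophil chemokine, had 1.45 (567 and 1375), and RELB, the NF-κB subunit of the alternative pathway, had 1.27 (5651 and 12074). CXCL1 passed the background flag with DMSO only (355 and 104) and was at least 3.02-fold lower. Of the classical NF-κB subunits, NFKB1 had -0.40 and RELA had 0.17, with 0.65 at its dimmer probe. IL1B and TNF were not well above background on either array. Of the relatives of the acute phase proteins, the pentraxin genes APCS and PTX3, the pseudogene SAA3P and FGL2 were also not well above background.

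**Figure D4:**
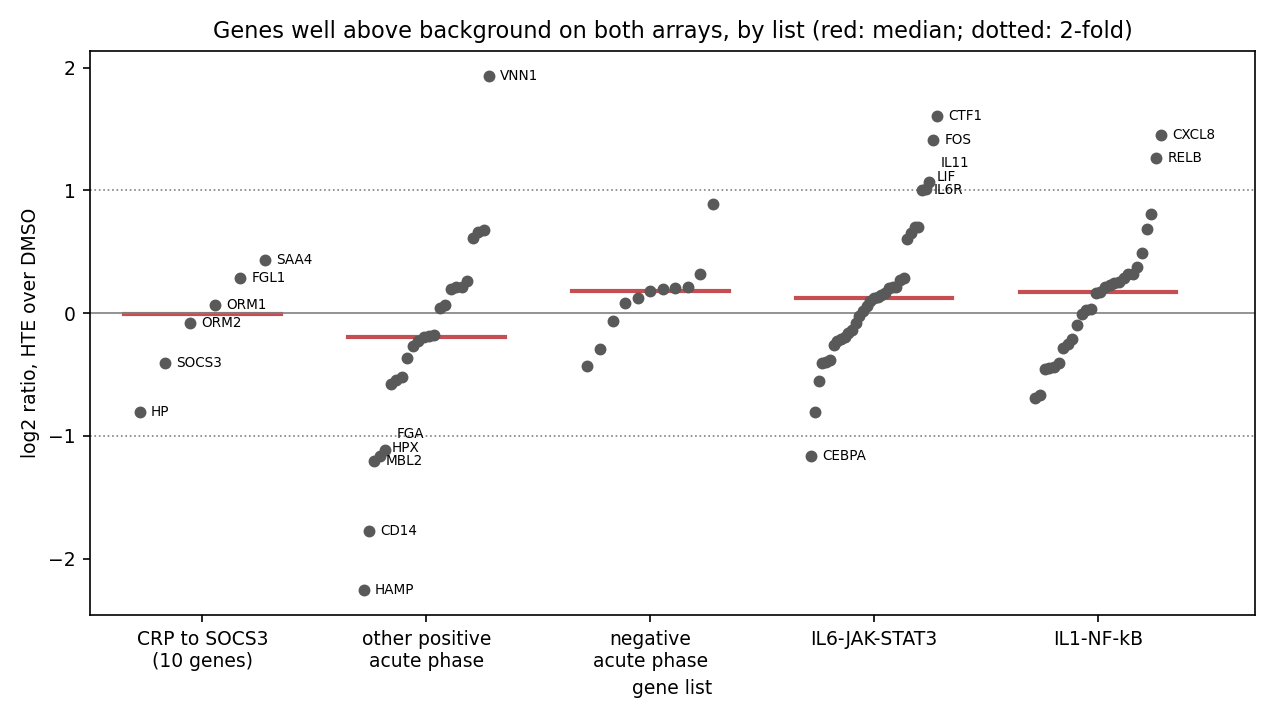
Log2 ratio of HTE over DMSO (y axis) for each gene well above background on both arrays, by list (x axis), with red lines at the median, dotted lines at 2-fold and names for all genes past 2-fold and for the 6 measured of the 10 genes. The other positive acute phase genes have a median of -0.19 with HAMP at -2.25, and the IL6-JAK-STAT3 list runs from CEBPA (-1.16) to CTF1 (1.60). IL1A and CXCL1, measured on 1 array, are not drawn.

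Scaling by a constant moved the 6 genes together, whereas normexp and quantile normalization each raised some of the 6 ratios and lowered others. Scaling by a constant cannot alter their order, and it was also the same with normexp, with quantile normalization and with the ratio of neighbouring spots subtracted, from HP (lowest) through SOCS3, ORM2, ORM1 and FGL1 to SAA4. With spike-in scaling HP (-2.02) and SOCS3 (-1.62) lay below the median of all genes (-1.21), and SAA4 (-0.77) and FGL1 (-0.92) lay above it.

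**Figure D5:**
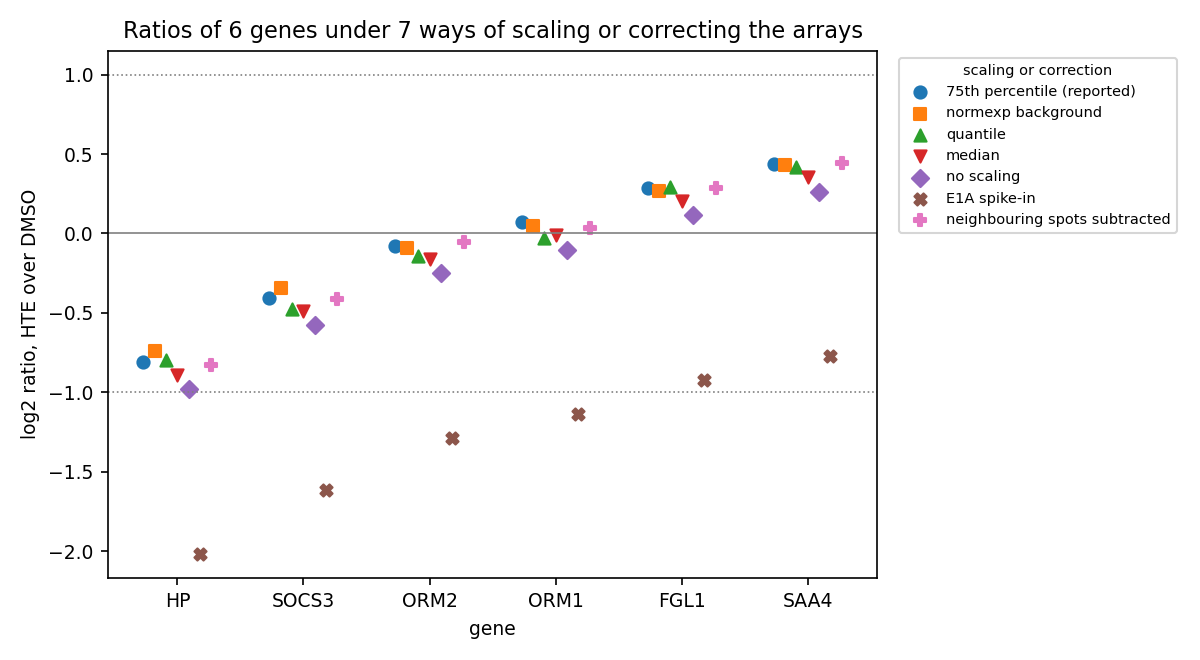
Log2 ratio of HTE over DMSO (y axis) of HP, SOCS3, ORM2, ORM1, FGL1 and SAA4 (x axis) under 7 ways of scaling or correcting the arrays (markers), with dotted lines at 2-fold. HP runs from -2.02 to -0.74 and stays below 0, and SAA4 runs from -0.77 with spike-in scaling to 0.44.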

How the data were processed

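Gene expression of HepG2 cells was measured on 2 Agilent one-colour arrays, 1 per treatment. What the authors deposited are scanner tables from Agilent Feature Extraction (version 11.5.1.1 per the file headers, 10.7 per the submitters' processing notes), and the intensity values used are the processed signals, which that software had background-subtracted and detrended without scaling between arrays. The median spot and background intensities deposited in the same files were used for normexp alone. The study's methods name a 2-fold cutoff and no scaling.

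Control spots and flagged spots were left out, log2 was taken, each array's 75th percentile was subtracted and replicate spots were averaged. A probe counted as well above background when at least 0.5 of its spots were flagged so. Where a probe missed this on 1 array, it was set to the dimmest spot well above background there, or to its own signal where that was higher (as for CXCL1), which gives a bound, and a bound under 1-fold counted as no change. Probes were named through RefSeq transcripts (GRCh38.p14), which matched 28146 of 50532 usable probes, and the brightest probe stood for a gene. The files were designed on another build, so no coordinates were taken from them. Those printed for the promoter windows are of GRCh38.p14.

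The 10 genes and the lists were chosen with earlier results of these data known. From each list were named up to 3 of the largest rises and 3 of the largest falls past 2-fold on both arrays, with IL6R, IL6ST, STAT3, CEBPB, CEBPD, NFKB1, RELA, the SOCS family and measured relatives whatever their value. A further gene of this rule is not reported here. The other list genes, among them HPX, FGA, LIF, IL1A and CXCL1, were named after their values were seen. The number of arrays limits the precision. The steps were run on the DMSO array and a noisy copy of it, in which 200 of 23309 genes were shifted past 2-fold. All 200 were found with 0 others, an outcome fixed by a shift far larger than the noise added. It checks the computation alone and not the spread between cultures or arrays. Alternatives were normexp, quantile normalization, scaling to the median, to 8 E1A spike-in probes or none, outlier spots kept, dim probes treated differently, other cutoffs and the mean over probes. Taking each probe on its own gave no further value, since no member had several probes that passed. The software was limma 3.58.1 under R 4.3.3, and pandas 2.3.3, numpy 2.4.6 and matplotlib 3.10.9 under Python 3.11.15.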

Additional observations from a re-analysis of the deposited data

How the results depend on the processing

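No paired analysis was possible because each treatment had 1 array, and for the same reason no array could be left out. Of 168 comparisons with alternatives and reported values, 108 stayed within 0.051 on the log2 scale (the median SD over replicate spots of a probe) or within 1.5 times the count, and 60 moved. Part of the 108 could not move. The genes measured on both arrays had no flagged spot, no dim probe and no second probe. Keeping outlier spots, a dim probe's own value and the mean over probes thus returned their ratios unchanged. Log2 ratios that moved are given by setting, and beyond the construction of each alternative the cause was not tested. With normexp they were -0.74 for HP, -0.34 for SOCS3, -0.30 for SAA2 and -0.090 for the median of the 7 genes, with 825 of all genes higher and 468 lower. With quantile normalization they were -0.031 for ORM1, -0.14 for ORM2, -0.48 for SOCS3 and 0.022 for the negative acute phase genes. After scaling to the median they were 0.36 for SAA4, -0.89 for HP, -0.0098 for ORM1, -0.16 for ORM2, 0.20 for FGL1, -0.49 for SOCS3, -0.27 for the other positive acute phase genes, 0.072 for the negative ones, 0.031 for the IL6 list and 0.090 for the NF-κB list. Without scaling they were 0.26 for SAA4, -0.98 for HP, -0.10 for ORM1, -0.25 for ORM2, 0.11 for FGL1, -0.58 for SOCS3, -0.10 for the median of the 7 genes, -0.36 for the other positive acute phase genes, 0.0047 for the negative ones, -0.060 for the IL6 list and -0.0014 for the NF-κB list, with 1209 of all genes lower. With spike-in scaling they were -0.77 for SAA4, -2.02 for HP, -1.14 for ORM1, -1.29 for ORM2, -0.92 for FGL1, -1.62 for SOCS3, -0.86 for SAA2, -1.14 for the median, -1.40 for the other positive acute phase genes, -1.02 for the negative ones, -1.10 for the IL6 list and -1.04 for the NF-κB list, with 4 of the 7 genes lower and 144 of all genes higher against 15957 lower. With a dim probe's own value SAA2 had -1.89, the median was -0.080, 1 of the genes was lower, and 1341 of all genes were higher and 1320 lower. Without a filter 1 of the 10 genes, SAA1 (-1.55), was lower, with 2297 of all genes higher and 1270 lower. At 1.5-fold 1 gene was lower, with 2953 of all genes higher and 2505 lower, and at 3-fold 422 were higher and 129 lower. Subtracting the ratio of neighbouring spots, an alternative chosen after seeing the data, gave 0.060 for the NF-κB list. Signal over background limits CRP, SAA1, SAA2 and LBP, for which a difference was not detectable.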
